A study of Mus musculus with 12 samples.

Results

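Genes of the epidermal keratinocyte were examined in the ankle joints of arthritic and control mice, with the Mmp8 gene intact or deleted. The list held 39 gene symbols, and a gene was represented by the array feature that the platform annotation assigns to its symbol alone, or, where there were several, by the one whose mean signal on the 12 arrays was highest. By this rule 36 of the 39 genes were found, among 19938 genes of the whole array with such a feature. Dsg1a shares its feature with other desmogleins, and Dsc1 and Flg had no feature of their own.

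Total RNA from the ankle joint of 12 mice was hybridised to the Affymetrix Mouse Gene 1.0 ST array, with 1 array per mouse and 3 mice in each of 4 groups. Mmp8+/+ mice carry the intact gene for collagenase-2, and Mmp8-/- mice lack it in every tissue. Both genotypes came from intercrosses of Mmp8+/- mice, a stock of mixed strain origin that had first been crossed 12 times to C57BL/6, and mice were 6 to 8 weeks old at induction. Arthritic mice of each genotype received 150 µl of K/BxN serum intraperitoneally on day 0 and on day 2 and were killed on day 7, whereas control mice had no arthritis. K/BxN serum holds autoantibodies against glucose-6-phosphate isomerase, so the model covers the effector phase of joint inflammation and not the breaking of tolerance. Within each group the mice are numbered 1 to 3 by the order of their arrays, and the numbers pair no mice between groups.

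The epidermis is a layered epithelium that renews itself from its base. Basal keratinocytes express the keratin pair Krt5 and Krt14, and on leaving the basal layer they switch to Krt1 and Krt10, gain desmosomes, and finally build a cornified envelope of crosslinked proteins and lipids. The keratins named are hallmarks of skin, and cartilage, bone and synovium are not known as sites of their main expression. Other genes of the list may also be expressed by other cells of the ankle, which was not tested. Whether skin was removed from the ankles before RNA extraction is not given in the sources used here. In whole joints, fewer keratinocytes and less RNA per keratinocyte cannot be told apart.

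The proximal promoters of 4 members are shown because these genes represent the basal keratin, the suprabasal keratin and the pair of suprabasal secreted genes on which the comparisons below turn. Each sequence is the 250 bases before the annotated start, 5′ to 3′ on the gene's strand, from RefSeq on GRCm38.p6. Capitals mark the letters TATAAA, the core of a TATA box, and TGANTCA, the site of AP-1 factors, searched on both strands. Krt14 lies at chr11:100206031-100206280 on the minus strand, Krt10 at chr11:99389365-99389614 on the minus strand, Krtdap at chr7:30787655-30787904 on the plus strand and Sbsn at chr7:30751221-30751470 on the plus strand.
Krt14: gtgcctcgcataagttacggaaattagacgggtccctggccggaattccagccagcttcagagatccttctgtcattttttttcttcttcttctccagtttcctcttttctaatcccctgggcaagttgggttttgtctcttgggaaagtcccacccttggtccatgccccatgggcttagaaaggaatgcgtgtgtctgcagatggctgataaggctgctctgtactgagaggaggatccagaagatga
Krt10: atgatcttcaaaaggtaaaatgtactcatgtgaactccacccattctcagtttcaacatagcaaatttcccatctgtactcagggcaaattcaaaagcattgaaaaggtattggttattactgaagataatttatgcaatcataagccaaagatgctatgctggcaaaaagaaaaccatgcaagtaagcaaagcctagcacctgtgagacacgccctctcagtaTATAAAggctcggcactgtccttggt
Krtdap: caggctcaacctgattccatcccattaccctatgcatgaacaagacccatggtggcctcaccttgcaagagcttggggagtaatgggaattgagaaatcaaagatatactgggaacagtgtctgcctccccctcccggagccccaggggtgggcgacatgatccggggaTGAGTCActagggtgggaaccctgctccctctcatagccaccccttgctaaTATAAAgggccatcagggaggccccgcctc
Sbsn: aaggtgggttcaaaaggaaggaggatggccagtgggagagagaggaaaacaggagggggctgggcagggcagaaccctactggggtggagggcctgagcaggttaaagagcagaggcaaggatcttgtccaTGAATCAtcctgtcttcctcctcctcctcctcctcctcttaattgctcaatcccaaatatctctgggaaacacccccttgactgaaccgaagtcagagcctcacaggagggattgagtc
Krtdap holds an AP-1 match from -81 to -75 and a TATA match from -30 to -25, and Sbsn an AP-1 match from -119 to -113. Krt10 holds a TATA match from -26 to -21, and Krt14 holds neither. Promoters were listed for 24 of the 39 members. An AP-1 match was present in 6 of these, namely Krtdap, Sbsn, Lor, Ivl, Flg and Flg2, which is 25.0% against 7.82% of 27025 promoters of the genome. A TATA match was present in 6 of the 24, or 25.0%, against 14.3% of all. The letters AACNGGTT, a core of the site of grainyhead factors such as Grhl3, were present in Sfn alone, 4.17% of the members against 2.0% of all. A match is a description of the letters and not evidence of binding.

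The joint tissue genes Prg4 and Col1a1 had high signals, which do not show how much skin a sample held. The log2 signal of Prg4, the lubricin of joint surfaces, was 12.88 to 13.47 on the 12 arrays and that of Col1a1, type I collagen, 13.65 to 14.22. Of the 10 joint tissue genes, Matn3 and Col2a1 varied more, with an SD within groups of 0.58 and 0.47, against a list median of 0.26. On 3 control arrays the signals disagreed with the label or with the methods. Mouse 2 of those labelled Mmp8-/- control had an Mmp8 signal of 10.65, inside the 10.21 to 11.16 of the Mmp8+/+ mice, while the other 5 Mmp8-/- mice had 4.64 to 5.54. Xist, transcribed from the inactive X chromosome, had a signal of 10.42 in Mmp8+/+ control mouse 1 and 10.92 in Mmp8-/- control mouse 1, although the methods name males only. The counts of members called are given with and without these arrays where they differed. Medians without the mouse with Mmp8 signal are given for arthritis in Mmp8-/- mice and for the genotypes in control mice. Medians without the 2 mice with Xist signal are given for the genotypes in control mice only.

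Epidermal genes varied more between mice of the same group than most of the array. Their within-group SD on the log2 scale, pooled over the 4 groups, had a median of 0.45 over the 36 members, against 0.23 over the 18479 features tested. Of the 36 members, 18 exceeded 0.45, the value that 5.0% of all tested features exceed. The 5 suprabasal keratins all did, with a median of 1.08 and 1.57 for Krt2. Of the 9 members of the cornified envelope group, 2 did. The SD of Tgm1, Asprv1, Ppl and Evpl stayed below it, at 0.26, 0.29, 0.43 and 0.19. Over the 12 mice the range of a member was 0.91 to 4.66 log2 units with a median of 1.77, and 4 members spanned more than 3 units.

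**Figure D1:**
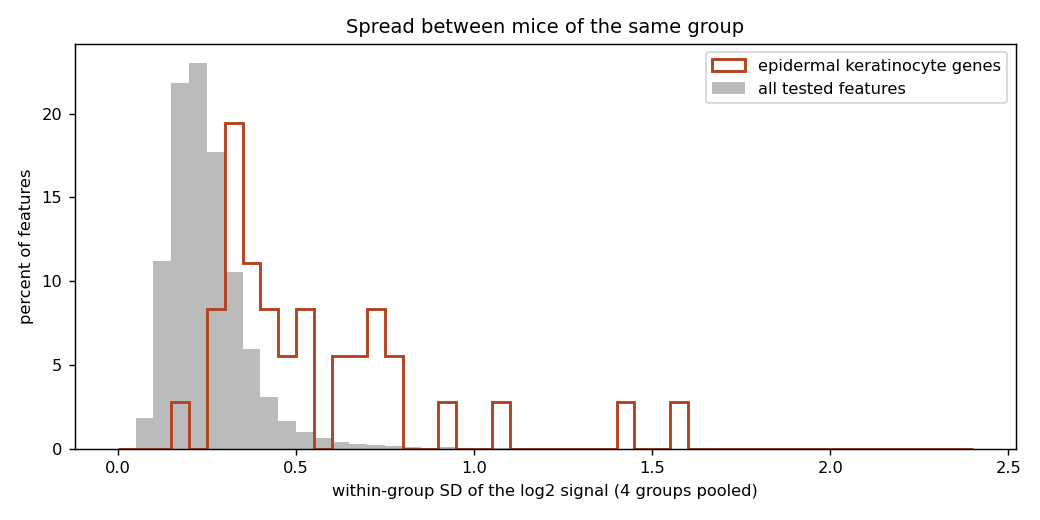
Within-group SD of the log2 signal (x axis) against the percent of features (y axis), for all 18479 tested features (grey bars) and for the 36 epidermal keratinocyte genes (red line). The members have a median of 0.45 and reach 1.57, whereas the median of all tested features is 0.23.

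The mice that were high or low were largely the same ones for most members. Mmp8+/+ control mouse 2 was the highest of its group for 32 of 36 members, Mmp8-/- control mouse 2 for 28 and Mmp8+/+ arthritic mouse 2 for 28, and these 3 mice held the highest of all 12 values for 27 of 36 members. Mmp8+/+ control mouse 1 was the lowest of its group for 29 members and Mmp8-/- control mouse 3 for 31. Relative to each member's own mean over the 12 mice, the mean of the 36 members was -0.46, 0.62 and -0.04 in the Mmp8+/+ control mice. It was 0.21, 0.68 and -0.57 in the Mmp8-/- control mice, and 0.14, 0.68 and 0.12 in the Mmp8+/+ arthritic mice. It was -0.28, -0.58 and -0.52 in the Mmp8-/- arthritic mice, which were all below 0, although 1 mouse of each control group was as low as they were. The spread between mice of 1 group was smallest in the Mmp8-/- arthritic mice, where 2 of 36 members spanned more than 1 log2 unit, against 17 in Mmp8+/+ control, 18 in Mmp8-/- control and 8 in Mmp8+/+ arthritic mice.

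**Figure D2:**
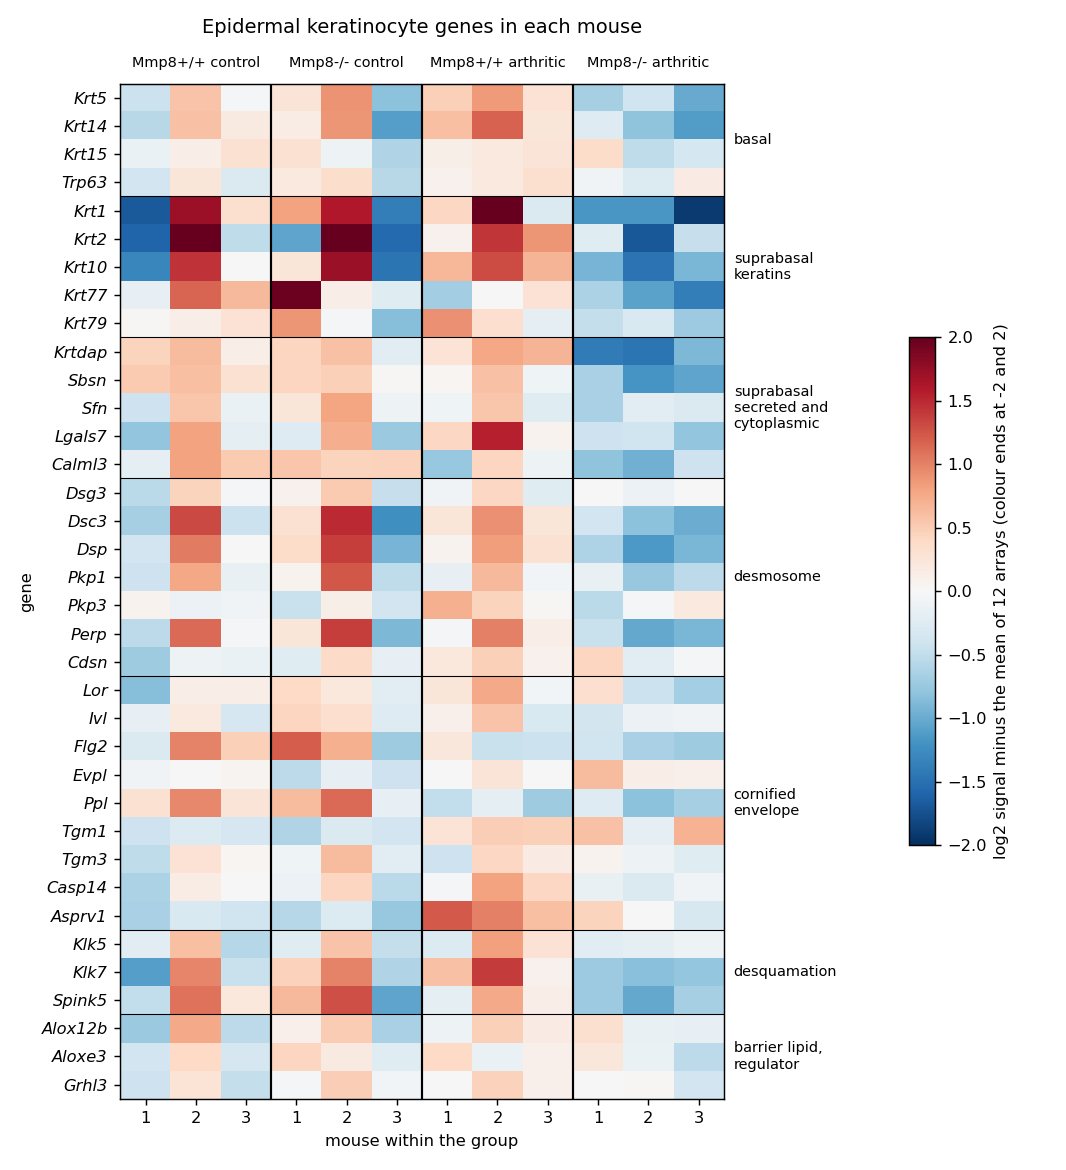
Log2 signal of the 36 genes (rows, by role) in the 12 mice (columns, 3 per group), each minus the gene's mean over the 12 mice, with colours ending at -2 and 2. Mouse 2 of both control groups and of the Mmp8+/+ arthritic group is red for most genes, and the 3 Mmp8-/- arthritic mice are mostly blue.

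Among basal genes, the keratin pair varied together and the other genes had narrower ranges. The log2 signal of Krt5 was 8.39, 9.39 and 8.79 in Mmp8+/+ control, 9.07, 9.72 and 7.99 in Mmp8-/- control, 9.30, 9.67 and 9.11 in Mmp8+/+ arthritic and 8.15, 8.42 and 7.81 in Mmp8-/- arthritic mice. For its partner Krt14 the values in the same order were 7.45, 8.59 and 8.19, then 8.16, 8.88 and 6.91, then 8.61, 9.18 and 8.25, and 7.74, 7.19 and 6.89. In both genes the 3 Mmp8-/- arthritic mice lay below the 3 Mmp8+/+ arthritic mice, and the control groups overlapped. Krt15, a keratin of basal and hair bulge cells, ranged from 6.46 to 7.43, and Trp63, the p63 factor that maintains basal keratinocytes, from 6.43 to 7.34, with overlap between all groups.

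Suprabasal keratins had the widest spread. The log2 signal of Krt1 was 7.20, 10.58 and 9.19 in Mmp8+/+ control, 9.68, 10.47 and 7.48 in Mmp8-/- control, 9.28, 11.63 and 8.58 in Mmp8+/+ arthritic and 7.71, 7.71 and 6.96 in Mmp8-/- arthritic mice. Krt10, its partner, read 9.28, 12.03 and 10.59, then 10.83, 12.31 and 9.11, then 11.24, 11.89 and 11.25, and 9.65, 9.11 and 9.66. Krt2, a keratin of the upper spinous and granular layers, read 7.18, 10.85 and 8.27, then 7.73, 11.45 and 7.23, then 8.86, 10.21 and 9.66, and 8.53, 7.08 and 8.32. In these 3 genes the arthritic genotypes did not overlap, while Mmp8+/+ control mouse 1 and Mmp8-/- control mouse 3 were as low as Mmp8-/- arthritic mice. Krt77 ranged from 6.22 to 9.57 and was highest in Mmp8-/- control mouse 1, and Krt79 ranged from 6.30 to 8.07. Keratins are similar in sequence, and a feature may pick up RNA of a related keratin.

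To see whether basal, suprabasal and envelope genes varied in the same mice, 6 pairs of genes were compared across the 12 mice. The permutations took no account of the 4 groups. Krt5, Krt14, Krt1 and Krt10 did not overlap between the arthritic genotypes. For these keratins, values over all 12 mice and over the 6 arthritic mice therefore include the difference between groups. Krt14 followed Krt5 with a Pearson r of 0.96 (permutation p = 2e-05, the smallest that 100000 resamples can give, adjusted 0.00012) and a Spearman rho of 0.95 (permutation p = 4e-05, adjusted 0.00024). Without the 2 mice farthest from the median of Krt5, r was 0.93, and within the 6 control and the 6 arthritic mice it was 0.98 and 0.94. Krt10 followed Krt1 with r = 0.91 (permutation p = 0.00014, adjusted 0.00028) and rho = 0.80 (permutation p = 0.0028, adjusted 0.00471), and r was 0.93 without the 2 mice farthest from the median of Krt1, 0.98 in control and 0.86 in arthritic mice. It followed the basal keratin Krt14 with r = 0.93 (permutation p = 6e-05, adjusted 0.00018) and rho = 0.87 (permutation p = 0.00056, adjusted 0.00168), and r was 0.95 without the 2 mice farthest from the median of Krt14, 0.97 in control and 0.93 in arthritic mice. For Lor, loricrin of the cornified envelope, against Krt10 r was 0.68 (permutation p = 0.0154, adjusted 0.0185) and rho 0.56 (permutation p = 0.0634, adjusted 0.0761), and r was 0.66 without the 2 mice farthest from the median of Krt10. For Ckm, creatine kinase of skeletal muscle, against Krt10 r was 0.02 (permutation p = 0.966, adjusted 0.966), rho was -0.01 (permutation p = 0.989, adjusted 0.989) and r was -0.32 without the 2 mice farthest from the median of Krt10. Within the 6 control mice r was -0.61 for Ckm against Krt10 (exact permutation p = 0.217, adjusted 0.217) and within the 6 arthritic mice it was 0.17 (exact permutation p = 0.658, adjusted 0.658). For Lor against Krt10 r was 0.70 in control and 0.70 in arthritic mice. For Krtdap against Krt10 the 3 Mmp8-/- arthritic mice stood apart, so no value over all mice is given. Within the 6 control mice r was 0.72 (exact permutation p = 0.122, adjusted 0.147) and rho was 0.77 (exact permutation p = 0.103, adjusted 0.123). Within the 6 arthritic mice, where the genotypes do not overlap in either gene, r was 0.97 (exact permutation p = 0.00278, adjusted 0.0167) and rho was 1.0 (exact permutation p = 0.00278, adjusted 0.0167).

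**Figure D3:**
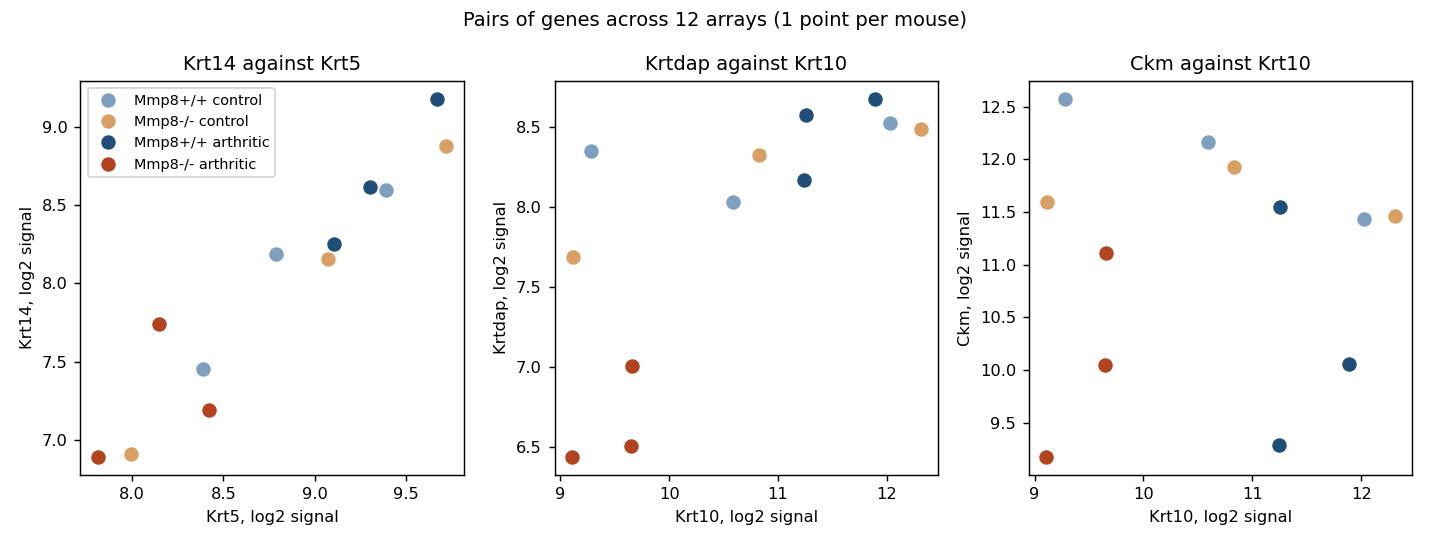
Log2 signal of Krt14 against Krt5, Krtdap against Krt10 and Ckm against Krt10, with 1 point per mouse coloured by group. Krt14 follows Krt5 across all groups, the 3 Mmp8-/- arthritic mice lie apart in Krtdap at 6.44 to 7.00, and r is 0.02 for Ckm against Krt10.

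Among suprabasal secreted and cytoplasmic genes, Krtdap and Sbsn had narrow ranges in control mice and low values in Mmp8-/- arthritic mice. Krtdap encodes keratinocyte differentiation-associated protein, a small secreted protein of the spinous layer, and Sbsn encodes suprabasin. The log2 signal of Krtdap was 8.35, 8.52 and 8.03 in Mmp8+/+ control, 8.33, 8.49 and 7.69 in Mmp8-/- control, 8.17, 8.68 and 8.58 in Mmp8+/+ arthritic and 6.50, 6.44 and 7.00 in Mmp8-/- arthritic mice. That of Sbsn was 9.20, 9.27 and 8.97, then 9.10, 9.15 and 8.70, then 8.71, 9.26 and 8.58, and 8.02, 7.50 and 7.62. In both genes the 3 Mmp8-/- arthritic mice lay below all of the other 9 mice. Mmp8+/+ control mouse 1 and Mmp8-/- control mouse 3, which were low for Krt10 with 9.28 and 9.11, had 8.35 and 7.69 for Krtdap and 9.20 and 8.70 for Sbsn. The span of the 6 control mice was 0.84 for Krtdap and 0.57 for Sbsn, against 3.20 for Krt10. Sfn, the 14-3-3 sigma protein of differentiating keratinocytes, ranged from 6.80 to 8.23 over the 12 mice, the galectin gene Lgals7 from 6.78 to 9.13 and the calmodulin-like gene Calml3 from 5.81 to 7.57.

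The first question was whether the epidermal genes changed with arthritis. Of the 39 genes, 35 were tested, because Ivl, which encodes involucrin of the cornified envelope, had a mean signal of 4.99, under the minimum of 5.3. In Mmp8+/+ mice, 2 members (5.71%) rose and 1 (2.86%) fell at a false discovery rate of 5%, against 7.2% of all tested features that rose and 11.7% that fell. The median log2 difference of the 35 members was 0.35, with 29 above 0, against a median of 0.01 over all features. It lay between 0.07 and 0.60 whichever single mouse was left out. Both members that rose and the 1 that fell belong to the group of cornified envelope and filaggrin processing genes. The shares of members called lie below those of all features, so the calls are not read as a result about that group.

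The log2 signal of Asprv1, the protease that cleaves filaggrin, was 8.75, 9.09 and 8.99 in Mmp8+/+ control and 10.62, 10.40 and 9.99 in Mmp8+/+ arthritic mice. It rose by 1.39 (SE 0.22, limma adjusted p = 0.000542), and the 2 groups did not overlap. Tgm1, the transglutaminase that crosslinks the envelope, read 6.77, 6.92 and 6.85 in control and 7.46, 7.68 and 7.66 in arthritic mice, a rise of 0.76 (SE 0.20, limma adjusted p = 0.0186) without overlap. Ppl, the envelope and desmosome linker periplakin, read 7.56, 8.22 and 7.52 in control and 6.76, 7.08 and 6.54 in arthritic mice and fell by 0.97 (SE 0.29, limma adjusted p = 0.03), again without overlap. Asprv1 passed in each of 21 alternative analyses, including the removal of any single mouse. Without the 2 mice with Xist signal 2 members passed, against 10.5% of all features. They were Asprv1 and Krt77 (-1.05, limma adjusted p = 0.0423), while Ppl differed by -1.08 (limma adjusted p = 0.0626) and Tgm1 by 0.72 (limma adjusted p = 0.0781). Without Mmp8+/+ arthritic mouse 3 Asprv1 was the 1 member that passed, against 14.2% of all features. The limma adjusted p was then 0.0566 for Tgm1 and 0.0996 for Ppl. The adjusted p of Tgm1 was also 0.0659 without control mouse 1 and 0.0618 without arthritic mouse 2, and that of Ppl 0.128 without control mouse 2 and 0.0833 without arthritic mouse 1.

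In Mmp8-/- mice, 5 members (14.3%) fell and 2 (5.71%) rose with arthritis, against 13.7% of all tested features that fell and 7.92% that rose. Both shares are near those of all features, so the calls describe single genes and not the list. The median log2 difference of the members was -0.69, with 29 of 35 below 0, against -0.01 over all features. Without the mouse labelled Mmp8-/- control that had Mmp8 signal, this median was -0.26. Over all removals of a single mouse it lay between -0.92 and -0.26. Of the 35 members, 7 had all 3 arthritic mice below all 3 control mice, or 20%, close to the 21% of all features. The members that fell were 3 suprabasal secreted and cytoplasmic genes, a suprabasal keratin and an envelope protein.

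Krtdap fell by 1.52 (SE 0.23, limma adjusted p = 0.000486) and Sbsn by 1.27 (SE 0.20, limma adjusted p = 0.0008). Both calls held in each of the 21 alternative analyses. Calml3 read 7.32, 7.21 and 7.23 in control and 5.96, 5.81 and 6.35 in arthritic Mmp8-/- mice, and fell by 1.21 (SE 0.28, limma adjusted p = 0.00922). Krt77 read 9.57, 7.74 and 7.37 against 6.98, 6.55 and 6.22 and fell by 1.64 (SE 0.47, limma adjusted p = 0.0249). The Krt77 value rests in part on Mmp8-/- control mouse 1, without which the difference was -0.97 with an adjusted p of 0.104, and the adjusted p was 0.0515 and 0.0652 without arthritic mouse 2 and 3. Ppl read 7.89, 8.39 and 7.10 against 6.99, 6.44 and 6.59 and fell by 1.11 (SE 0.29, limma adjusted p = 0.0157), as it did in Mmp8+/+ mice. Without the control mouse with Mmp8 signal the Ppl difference was -0.82 with an adjusted p of 0.0699, which was 0.0589 without control mouse 1.

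Tgm1 rose in Mmp8-/- mice as well, from 6.58, 6.89 and 6.80 to 7.77, 7.00 and 7.88, a difference of 0.79 (SE 0.20, limma adjusted p = 0.0148). Evpl, which encodes envoplakin, the partner of periplakin, read 6.41, 6.75 and 6.51 in control and 7.56, 7.06 and 7.02 in arthritic Mmp8-/- mice and rose by 0.65 (SE 0.17, limma adjusted p = 0.0161). Without Mmp8-/- control mouse 1 the adjusted p was 0.0689 for Tgm1 and 0.0753 for Evpl, and without arthritic mouse 1 it was 0.0598 and 0.0621. Asprv1 read 8.82, 9.11 and 8.64 against 9.84, 9.38 and 9.07, a difference of 0.57 (SE 0.22, limma adjusted p = 0.0704), with overlap. The count of members called in Mmp8-/- mice depended on single control mice. It was 3 of 35 without mouse 1, which has Xist signal, leaving Krtdap, Sbsn and Calml3. It was 6 without mouse 2, which has Mmp8 signal, and 17 without mouse 3, which had the lowest keratin values of its group, the additional genes including Krt5, Krt14, Krt1, Krt10, Dsp and Klk7. Over all features 10%, 12.9% and 17.6% were called without control mouse 1, 2 and 3.

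**Figure D4:**
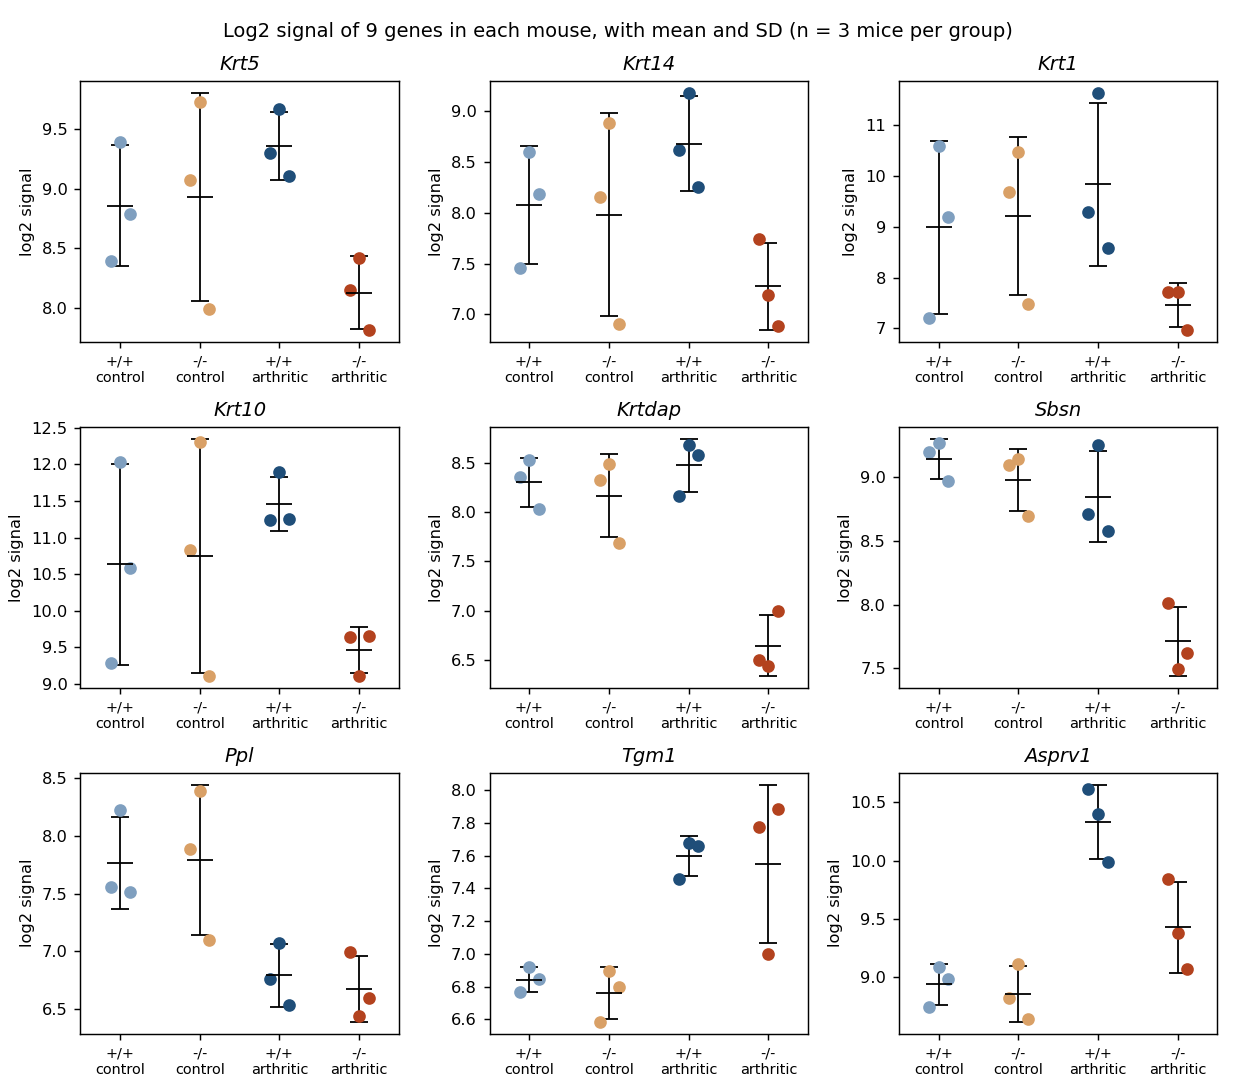
Log2 signal (y axis) of 9 genes in each of the 12 mice by group, with mean and SD as bars (n = 3 mice). Krtdap and Sbsn are lowest in the 3 Mmp8-/- arthritic mice, Tgm1 is higher and Ppl lower in both arthritic groups, Asprv1 is higher in the Mmp8+/+ arthritic mice, and the keratins spread widely within the control groups.

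The next question was whether the genotypes differed. In arthritic mice 34 of the 35 members had a lower mean in Mmp8-/- than in Mmp8+/+ mice, with a median log2 difference of -0.58, against 51.6% of all features below 0 with a median of -0.01. The members were measured in the same mice and rose and fell together, so this count is not 34 separate observations. In 16 of 35 members, or 45.7%, all 3 Mmp8-/- arthritic mice lay below all 3 Mmp8+/+ arthritic mice, against 3.34% of all features. No member lay above without overlap, against 2.84% of all features. The 16 were Krt5, Krt14, Krt1, Krt2, Krt10, Krt79, Krtdap, Sbsn, Lgals7, Dsc3, Dsp, Perp, Casp14, Asprv1, Klk7 and Spink5. The median lay between -0.78 and -0.49 whichever single mouse was left out.

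A single member passed the test across all features in this comparison, and it was the single feature of the array to do so, 0.00541% of those tested. Without the control mouse with Mmp8 signal 2 features passed, Krtdap and Mmp8, and with only the compared groups fitted 3 did. Mmp8 itself differed by -5.54 with a limma adjusted p of 0.42 over the 12 arrays and 2.52e-07 without that mouse. Krtdap differed by -1.83 between Mmp8-/- and Mmp8+/+ arthritic mice (SE 0.23, 95% interval -2.32 to -1.33, limma adjusted p = 0.0234). The adjusted p was 0.262 without Mmp8+/+ arthritic mouse 2, 0.096 without mouse 3, 0.207 without Mmp8-/- arthritic mouse 1 and 0.265 without mouse 2. Without the 2 control mice with Xist signal, which enter only through the shared estimate of the spread, it was 0.0982. Sbsn differed by -1.14 (SE 0.20, limma adjusted p = 0.42). At an unadjusted p under 0.05, 15 members and 523 of all features differed.

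The other roles are given with their sizes, none having passed across all features. For basal keratins the difference was -1.23 for Krt5 (SE 0.35) and -1.40 for Krt14 (SE 0.42), and for suprabasal keratins -2.37 for Krt1 (SE 0.87) and -1.99 for Krt10 (SE 0.67). Of the desmosomal genes, which bind keratinocytes to each other, Dsp read 8.14, 8.90 and 8.38 in Mmp8+/+ arthritic and 7.46, 6.92 and 7.16 in Mmp8-/- arthritic mice, a difference of -1.29 (SE 0.46). Dsp encodes desmoplakin, which ties keratin filaments to the desmosome. The desmosomal cadherin gene Dsc3 differed by -1.19 (SE 0.57) and the desmosomal membrane protein gene Perp by -1.16 (SE 0.49), both without overlap. The plakophilin genes Pkp1 and Pkp3 differed by -0.62 (SE 0.39) and -0.51 (SE 0.22), and Dsg3 and the corneodesmosin gene Cdsn by -0.08 (SE 0.27) and -0.19 (SE 0.23), all 4 with overlap.

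Desquamation genes include the proteases Klk5 and Klk7, which shed cornified cells, and their inhibitor Spink5. Klk7 read 8.33, 9.14 and 7.83 in Mmp8+/+ arthritic and 7.03, 6.92 and 6.97 in Mmp8-/- arthritic mice, a difference of -1.46 (SE 0.47). Its 3 Mmp8-/- arthritic values lay within 0.11 of each other. Spink5 differed by -1.05 (SE 0.48) without overlap and Klk5 by -0.44 (SE 0.32) with overlap. Of the envelope genes, Asprv1 differed by -0.90 (SE 0.22), and Casp14, a caspase of cornification, by -0.57 (SE 0.27), both without overlap. Lor differed by -0.57 (SE 0.31), Flg2 by -0.37 (SE 0.40), Tgm3 by -0.15 (SE 0.26), Ppl by -0.12 (SE 0.29) and Tgm1 by -0.05 (SE 0.20), and the groups overlapped. Evpl was the single member with a positive difference, 0.20 (SE 0.17). The barrier lipid genes Alox12b and Aloxe3, lipoxygenases of the cornified lipid envelope, and the transcription factor gene Grhl3 differed by -0.18 (SE 0.35), -0.27 (SE 0.25) and -0.30 (SE 0.22), with overlap.

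In control mice limma called no member and 0% of all features, and without the mouse with Mmp8 signal it called 1 feature, Mmp8. At an unadjusted p under 0.05 limma gave 0 members and 596 features, and ordinary linear regression called 0 members after adjustment. The median log2 difference of the members between Mmp8-/- and Mmp8+/+ control mice was 0.07, and it lay between -0.25 and 0.42 whichever single mouse was left out. It was -0.25 without the mouse with Mmp8 signal and -0.19 without the 2 mice with Xist signal. The intervals were wide, with 0.12 for Krt10 (95% interval -1.31 to 1.55) and 0.22 for Krt1 (95% interval -1.64 to 2.08), and narrower for Krtdap at -0.13 (95% interval -0.63 to 0.36). All 3 Mmp8-/- control mice lay below the 3 Mmp8+/+ control mice for Evpl alone, against 3.82% of all features, and above for no member, against 4% of all features.

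**Figure D5:**
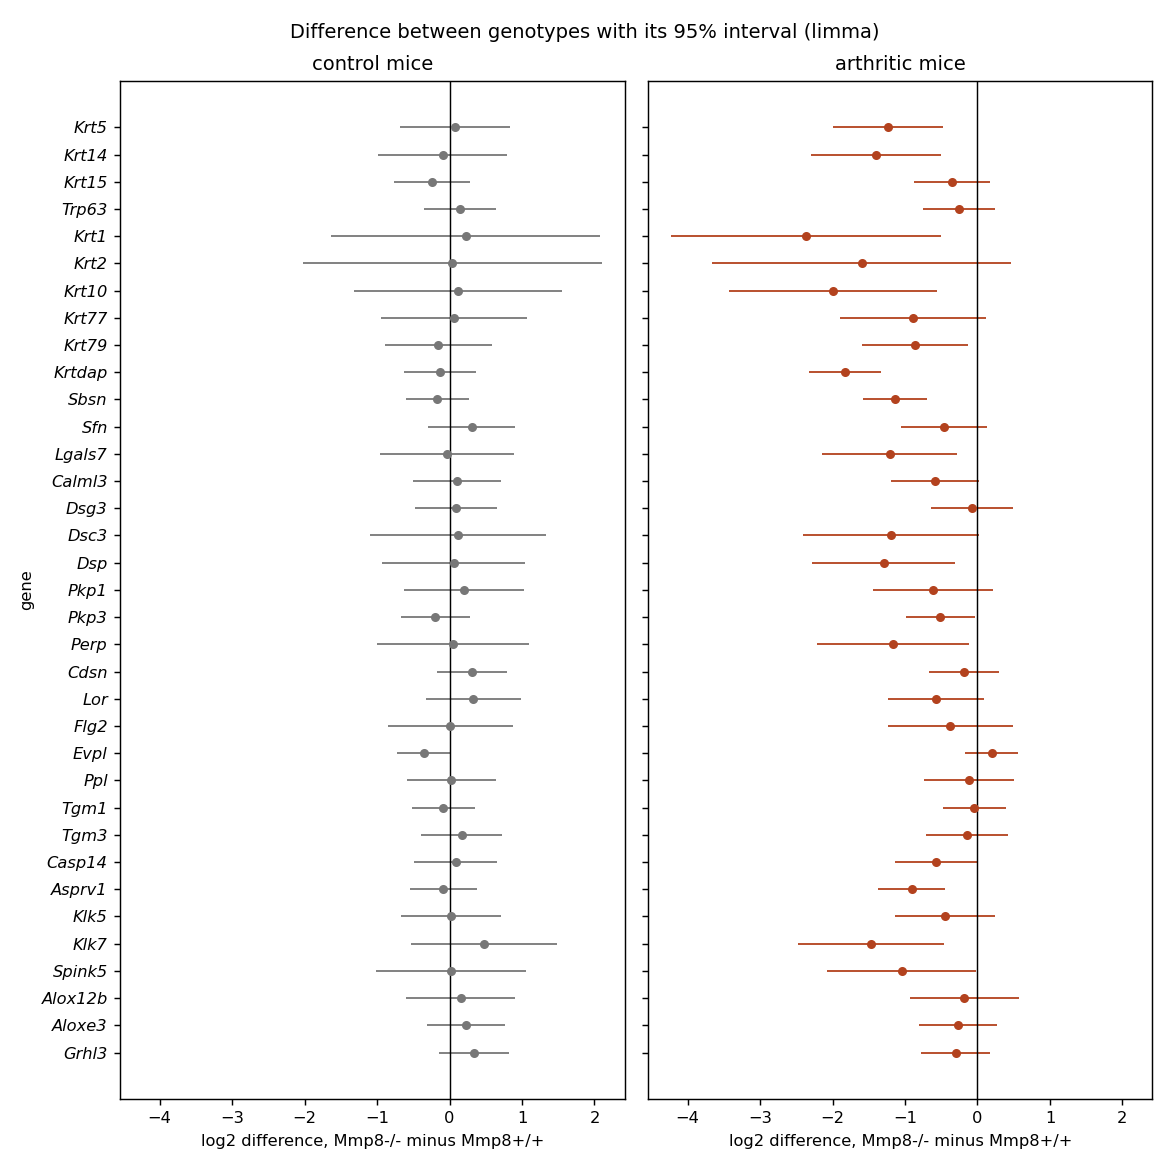
Log2 difference between Mmp8-/- and Mmp8+/+ mice for the 35 tested members with 95% intervals from limma, in control mice (left) and arthritic mice (right). In arthritic mice 34 of 35 points lie below 0 and in control mice 10 of 35.

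Whether the genotypes responded differently to arthritis was tested as an interaction. Limma called no member and 0% of all features. At an unadjusted p under 0.05, 8 members and 576 features differed, and ordinary linear regression called 0 members after adjustment. The median of the members was -0.77, with 33 of 35 below 0, against 51.2% of all features below 0 with a median of -0.01. Over all removals of a single mouse the median of the members lay between -0.97 and -0.53. For Krtdap the interaction was -1.69 (SE 0.33, limma adjusted p = 0.729) and for Klk7 -1.94 (SE 0.67, limma adjusted p = 1). The difference between the genotypes in how these genes changed with arthritis is therefore given as values only.

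Other epidermal genes, from a list of 40 barrier genes of which 32 were tested, followed the members in part. Their median log2 difference between the arthritic genotypes was -0.32, with 27 of 32 below 0, against 51.6% of all features. Of the 32, 7 lay below without overlap, against 3.34% of all features, and 1 above, against 2.84%. Dmkn, dermokine, was chosen after its values were seen because it lies between Sbsn and Krtdap on chromosome 7. It read 8.63, 9.26 and 8.62 in Mmp8+/+ arthritic and 7.81, 6.86 and 7.17 in Mmp8-/- arthritic mice, a difference of -1.55 (SE 0.40, limma adjusted p = 1). Unlike Sbsn and Krtdap, Dmkn was also low in Mmp8+/+ control mouse 1 and Mmp8-/- control mouse 3, with 7.53 and 7.43. Of the 8 tested genes that anchor keratinocytes to the basement membrane, 4 fell and 0 rose with arthritis in Mmp8+/+ mice, namely Itga6, Itgb4, Dst and Cd151. Over all features 11.7% fell and 7.2% rose. In Mmp8-/- mice 3 fell, Itga6, Itgb4 and Cd151, and the anchoring fibril collagen gene Col7a1 rose by 0.48 (SE 0.15, limma adjusted p = 0.0326). In these mice 13.7% of all features fell and 7.92% rose. The calls of Itga6 and Cd151 held whichever single mouse was left out, whereas the adjusted p reached 0.0938 for Itgb4 and 0.108 for Dst in Mmp8+/+ mice, and 0.0574 for Itgb4 and 0.109 for Col7a1 in Mmp8-/- mice. The integrin gene Itga6 fell by 0.89 (SE 0.17, limma adjusted p = 0.00237) in Mmp8+/+ and by 1.14 (SE 0.17, limma adjusted p = 0.000377) in Mmp8-/- mice, and the median difference between the arthritic genotypes was -0.04. Endothelial cells also express Itga6, and none of the 9 anchorage genes reached the within-group SD that 5.0% of features exceed.

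Markers of other tissues in the ankle are given for the same comparisons, and the difference between their lists and the epidermal genes was not tested. All 12 skeletal muscle genes exceeded the within-group SD that 5.0% of features exceed. With arthritis 11 and 6 of them fell in Mmp8+/+ and Mmp8-/- mice, against 11.7% and 13.7% of all features. The median difference of the muscle genes between the arthritic genotypes was 0.01, with 6 of 12 below 0, against -0.58 for the epidermal members. The median of the 20 hair follicle and shaft genes tested was 0.09 in the same comparison, with 13 above 0. With arthritis in Mmp8-/- mice the hair median was -0.32 with 15 of 20 below 0, and for the interaction it was -0.49 with 18 of 20 below 0. Between the genotypes in control mice the hair median was 0.46, with 2 of 20 below 0, against 48.7% of all features. The interaction includes this difference between the control groups. All 9 adipocyte genes fell with arthritis in both genotypes, and their median between the arthritic genotypes was -0.04. The part that the amount of skin in each ankle sample plays in the epidermal differences was not tested.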

How the data were processed

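Per the labels and methods, the authors processed the arrays with the Robust Multichip Average method (RMA) and Partek and deposited log2 signals, background corrected, quantile normalised and summarised per feature. The table held 28853 features and 12 columns, and 0 columns were left out. Genes were named from the platform annotation. Groups came from the submitters' labels. The 39 members, their roles and the other lists were chosen with earlier results of these data known. All members are named. Outside them Mmp8, the label checks and some genes of the other lists are named, chosen by signal, by a call or as stated. Not every called gene of these lists is named. The lists of sebaceous gland, oral and oesophageal epithelium, melanocyte, and Langerhans and Merkel cell genes are not reported.

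The 18479 named features with a mean log2 signal of at least 5.3 were fitted with limma 3.58.1 in R 4.3.3, as 4 group means over 12 arrays without a covariate, which left 8 residual degrees of freedom. Tests of the 5 comparisons were two-sided, with p-values adjusted by Benjamini-Hochberg over all features at 5%. The procedure was tested on simulated data. Permutation tests used scipy 1.17.1 with 100000 resamples for 12 mice and exact enumeration for 6. The 21 alternatives were other settings and the removal of each mouse in turn. The RMA step and the authors' background filter cannot be repeated from these values, and precision is limited by how few arrays each group has. Promoter sequences are from RefSeq on GRCm38.p6, and array coordinates were not used.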

Additional observations from a re-analysis of the deposited data

How the results depend on the processing

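The number of members called for arthritis in Mmp8+/+ mice, 3, was 1 with ordinary linear regression over 12 arrays, 2 without the 2 mice with Xist signal and 1 to 3 when single mice were left out. The first 2 of these settings called 13.5% and 10.5% of all features, and the removal of single mice 11.3% to 23.3%. In Mmp8-/- mice the number of members called was 7, and 4 with ordinary regression, 3 without the 2 mice with Xist signal and 3 to 17 when single mice were left out. The first 2 of these settings called 14.6% and 9.34% of all features. At the ends of the range, 3 and 17, 10% and 17.6% of all features were called. Between the arthritic genotypes the number of members called was 1, and 2 with only the compared groups fitted, Krt10 joining Krtdap. It was 0 with ordinary regression, with array weights, with no filter on signal and without the 2 mice with Xist signal. Each of these settings called 0% of all features. When single mice were left out it was 0 to 1, against 0% to 0.0108% of all features. The genotype comparison in controls and the interaction called 0 members in all 21 alternatives, against 0% to 0.00541% of all features. No direction of a called gene reversed. The yardstick for a move of a median was the SD of each mouse's mean member signal around its group mean. The median in Mmp8-/- mice moved by more than this in 1 alternative, to -0.26 without the control mouse with Mmp8 signal. Other scalings moved the median of all features by at most 0.07 and changed the sign of at most 3 members in a comparison. The causes were not tested. No paired analysis was possible because the array names carry no replicate numbers. With 3 mice per group and a median within-group SD of 0.45, the 95% intervals of Krt1, Krt2 and Krt10 were over 2 log2 units wide.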

Other observations

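Hair genes were highest in Mmp8-/- control mouse 2, which held the highest of the 12 values for 14 of 21 of them. It had the highest signal for Krt71, a keratin of the inner root sheath, at 9.18, and for Tchh, trichohyalin, at 8.80, and it was also high for the epidermal genes. Mmp8+/+ control mouse 2 and Mmp8+/+ arthritic mouse 2, which were high for the epidermal genes, had 6.90 and 5.91 for Krt71 and 6.63 and 5.96 for Tchh. Over the 21 hair genes with a feature the mean deviation from each gene's own mean was 1.01 in Mmp8-/- control mouse 2 and -0.37 to 0.34 in the other 11 mice. Tchh fell with arthritis in Mmp8-/- mice by 1.26 (SE 0.41, limma adjusted p = 0.0404), and without Mmp8-/- control mouse 2, which also has Mmp8 signal, the difference was -0.72 with an adjusted p of 0.157. Krt71 was chosen after its values were seen.

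Of 8 tested genes of stressed keratinocytes, 2 rose and 0 fell with arthritis in Mmp8+/+ mice, and 2 rose and 2 fell in Mmp8-/- mice. Over all features 7.2% rose and 11.7% fell in Mmp8+/+ mice, and 7.92% rose and 13.7% fell in Mmp8-/- mice. Between the arthritic genotypes 8 of 8 stress genes were lower in Mmp8-/- mice, against 51.6% of all features, with a median log2 difference of -0.38. Fabp5, a fatty acid binding protein of keratinocytes and macrophages, rose with arthritis by 1.78 (SE 0.18, limma adjusted p = 1.4e-05) in Mmp8+/+ and 1.52 (SE 0.18, limma adjusted p = 5.9e-05) in Mmp8-/- mice. Il1f9, an interleukin-36 cytokine gene also expressed by myeloid cells, rose by 1.55 (SE 0.22, limma adjusted p = 0.000314) and 1.78 (SE 0.22, limma adjusted p = 0.000102). In Mmp8-/- mice the small proline-rich envelope genes Sprr1a and Sprr2d fell by 0.67 (SE 0.23, limma adjusted p = 0.0473) and 0.69 (SE 0.22, limma adjusted p = 0.0402), with adjusted p up to 0.172 and 0.112 when a single mouse was left out. Krt16, a keratin of wounded epidermis named after its values were seen, had a signal of 7.22 in Mmp8+/+ arthritic mouse 2 and 3.78 to 5.15 in the other 11 mice, and its mean was too low for the test. Krt6b, named likewise, had 8.10 in that mouse and 3.61 to 5.75 in the others. Of 10 genes of sweat gland and simple epithelium, 1 rose and 2 fell with arthritis in Mmp8+/+ mice, and 3 rose and 2 fell in Mmp8-/- mice. The shares over all features are again 7.2% and 11.7% in Mmp8+/+ and 7.92% and 13.7% in Mmp8-/- mice. The genes of this list that fell in both genotypes were the simple epithelial keratin gene Krt19, by 0.91 (SE 0.19, limma adjusted p = 0.00424) and 0.62 (SE 0.19, limma adjusted p = 0.0317), and the forkhead factor gene Foxc1, by 0.84 (SE 0.22, limma adjusted p = 0.0165) and 1.18 (SE 0.22, limma adjusted p = 0.00229). Left-out single mice took the adjusted p of Krt19 to 0.101 in Mmp8-/- and that of Foxc1 to 0.0827 in Mmp8+/+ mice. Krt7 and Foxi1 rose in Mmp8-/- mice, with adjusted p up to 0.139 and 0.103 when a single mouse was left out. Aqp5, the water channel of sweat glands, rose with arthritis by 1.65 (SE 0.22, limma adjusted p = 0.000161) in Mmp8+/+ and 1.29 (SE 0.22, limma adjusted p = 0.00114) in Mmp8-/- mice.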
